A study of Homo sapiens with 12 samples.

Results

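The genes described here are 10 ligands of immune checkpoint receptors, taken by symbol from a table of 60666 genes. They are CD274 (PD-L1) and PDCD1LG2 (PD-L2), the other B7 family genes CD276, VTCN1 and CD80, the nectin-type genes PVR and NECTIN2, the galectin gene LGALS9, the TNF receptor family gene TNFRSF14, and CD47. Each symbol had 1 entry in the table. RNA of HT1376, a human bladder cancer cell line, was sequenced in 12 libraries to ask how IFNγ changes gene expression when FOXP3, a forkhead transcription factor best known from regulatory T cells, is disrupted. The 4 groups were HT1376 CT, a CRISPR control line, and HT1376 FOXP3 KO, in which guide RNAs cut an early exon of FOXP3, each left untreated or given 100 ng/mL IFNγ for 48 hours. Each group had 3 libraries, numbered 11, 12 and 13. Both lines were single-cell clones, so the disruption of FOXP3 and differences between clones cannot be told apart. No source says whether the triplicates came from separate cultures, so the p-values measure the spread between these libraries, which may be technical.

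Checkpoint ligands are surface or secreted proteins that bind receptors on T cells, NK cells or macrophages and dampen, or in some pairs activate, the responding cell. PD-L1 and PD-L2 both bind PD-1 on T cells. IFNγ, a cytokine of activated T cells and NK cells, signals through the kinases JAK1 and JAK2, and the transcription factor IRF1 is a classical inducer of PD-L1 in tumor cells.

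The libraries held 4490684 to 39270042 counts, and the shallowest was HT1376 CT with IFNγ replicate 12. FOXP3 itself had 0 to 1 counts in each HT1376 CT library and 0 to 3 in each HT1376 FOXP3 KO library, so its transcript could not be used to check the line labels. The study reported high basal FOXP3 in HT1376 by flow cytometry, a protein measure. It also measured FOXP3 in both lines by qPCR, an RNA measure, and by Western blotting. Epithelial genes were expressed in both clones at different levels. Of 15 epithelial and urothelial genes tested between the untreated lines, 4 were called higher and 5 lower in HT1376 FOXP3 KO (4 and 7 with the blocked fit described below). Of all 25320 genes tested, 14.0% were called higher and 18.2% lower. EPCAM was at 85.1 CPM (read counts scaled to a common library size) in HT1376 CT and 22.2 CPM in HT1376 FOXP3 KO, and KRT13 at 87.9 and 14.9 CPM (edgeR adjusted p = 4.6e-06 and 4.7e-06). PPARG was higher in HT1376 FOXP3 KO, at 20.1 and 54.1 CPM (edgeR adjusted p = 4.2e-05). KRT8 averaged 1154 to 1205 CPM in the 4 groups. The uroplakin gene UPK3A was at 0 in all libraries. Genes listed as markers of other cell types differed between the lines. The summed T cell and myeloid lists differed mainly through TRBC2 and CSF1R, and the fibroblast and endothelial list through several genes. The summed T cell list (12 genes) was at 42.6 to 85.6 CPM in HT1376 CT libraries and 1.20 to 5.12 CPM in HT1376 FOXP3 KO libraries, with TRBC2 at 62.1 and 2.28 CPM in the untreated groups. CD3E was also called lower in untreated HT1376 FOXP3 KO, at 0.774 and 0.0335 CPM (edgeR adjusted p = 0.00516), the latter at the count floor. CD2, CD8B and IL2RA were at 0 in all libraries. The summed myeloid list (10 genes) was at 3.16 to 8.10 CPM against 77.7 to 234 CPM, with CSF1R at 2.01 and 153 CPM in the untreated groups. ITGAM went the other way, at 1.46 and 0.467 CPM (edgeR adjusted p = 0.0414). CD68 and MS4A1 had no counts in any library, which covers only reads the counting could assign. The fibroblast and endothelial list (10 genes) was at 25.4 to 67.1 CPM against 450 to 733 CPM, led by COL1A2, DCN and LUM in HT1376 FOXP3 KO. Of its 10 genes, 5 were called higher and 2 lower in untreated HT1376 FOXP3 KO (6 and 2 with the blocked fit). The part of these genes in the differences between the lines described below was not tested.

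Sequences near the RefSeq start of 2 of the ligand genes are shown because they carry motifs of the IFNγ pathway. Promoter windows from 250 bases before to 50 bases after the RefSeq start were searched on both strands for the core of the element bound by IRF factors (GAAA, any 2 bases, GAAA), for TTCNNNGAA, the GAS element of IFNγ-responsive genes, and for the forkhead motifs TAAACA and TGTTTAC. Of 35116 promoter windows, 3.57% held the IRF motif, 7.66% the GAS motif, 0.439% both, 12.3% TAAACA and 3.42% TGTTTAC. The CD274 window held the IRF and GAS motifs. The stretch printed for CD274 is chr9:5450312-5450441 (GRCh38.p14, plus strand, RefSeq), which runs from base -230 to base -101 relative to the RefSeq start, with a pair of overlapping IRF motifs, read on the minus strand, and the GAS motif in capitals. The LGALS9 window held 1 IRF motif, also read on the minus strand and in capitals, shown in chr17:27631169-27631198 (GRCh38.p14, plus strand). The motif begins at base -9, and the printed stretch runs past the RefSeq start. The GENCODE model of LGALS9 starts earlier, at base 27629798.
CD274: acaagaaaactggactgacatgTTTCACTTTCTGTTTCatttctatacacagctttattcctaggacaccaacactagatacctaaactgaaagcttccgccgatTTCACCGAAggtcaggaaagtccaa
LGALS9: gttgctttggTTTCTATTTCtttgttaagt
The windows of CD276, VTCN1, PVR, NECTIN2, TNFRSF14, CD47 and CD80 held none of the 4 motifs, PDCD1LG2 had no entry, and neither forkhead motif was in the CD274 or LGALS9 window. The windows are short, and the study reported FOXP3 binding by ChIP PCR at motifs further upstream of CD274, which were not searched here. These matches describe letters in the reference and are neither binding sites nor causes of the values given below.

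Levels were compared between genes as CPM per kb of exon, since the genes differ in length. In untreated HT1376 CT, CD274 led with 20.8 ± 9.01 CPM per kb (SD, n = 3), followed by CD47 with 12.4 ± 1.09, and their libraries overlapped. CD276 (6.32 CPM per kb), PDCD1LG2 (5.16), NECTIN2 (4.58) and PVR followed, and each overlapped its neighbor. TNFRSF14, LGALS9 and VTCN1 averaged below 1 CPM per kb, and CD80 had no counts.

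**Figure D1:**
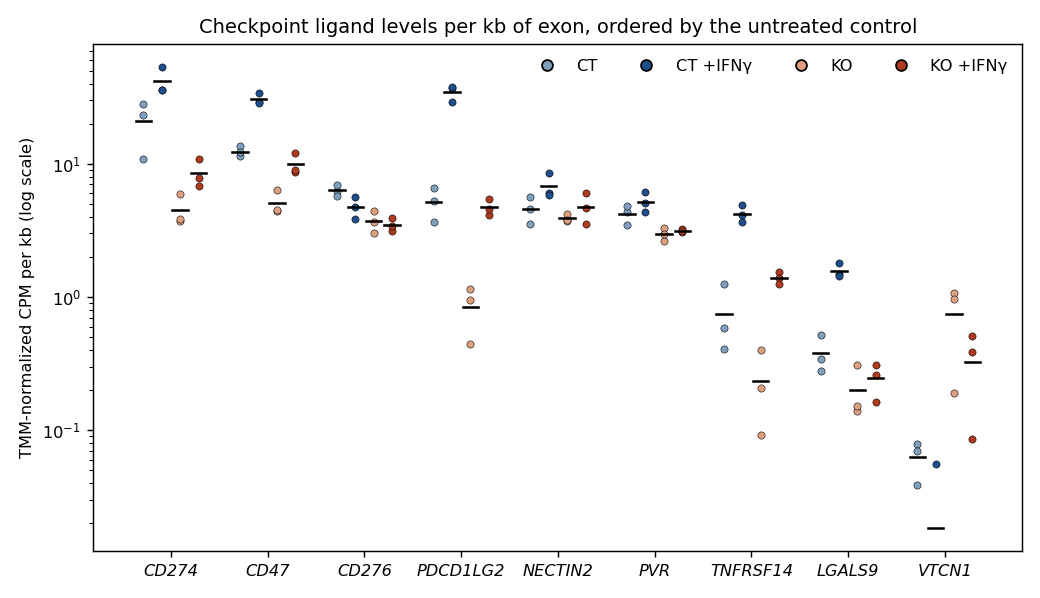
Levels of 9 checkpoint ligand genes in CPM per kb of exon on a log scale, ordered by their mean in untreated HT1376 CT. Points are libraries, bars are means of 3, and libraries at 0 (VTCN1 in HT1376 CT with IFNγ replicates 11 and 12) are not drawn. PDCD1LG2 reached the range of CD274 and CD47 in HT1376 CT with IFNγ.

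With IFNγ, the top of the order in HT1376 CT held CD274 at 41.7 ± 10.1 CPM per kb, PDCD1LG2 at 34.8 ± 4.88 and CD47 at 30.5 ± 3.11. The libraries of PDCD1LG2 overlapped those of both others, while each CD274 library (35.7 to 53.3) was above each CD47 library (28.4 to 34.1). The next gene, NECTIN2, was at 6.85 CPM per kb and did not overlap them. In untreated HT1376 FOXP3 KO the order was flatter. CD47, CD274, NECTIN2, CD276 and PVR lay between 5.07 and 2.97 CPM per kb with each neighbor overlapping, and PDCD1LG2 was at 0.843 ± 0.361. In HT1376 FOXP3 KO with IFNγ, CD47 at 9.94 ± 1.88 and CD274 at 8.51 ± 2.08 CPM per kb overlapped each other and lay above NECTIN2 and PDCD1LG2, both at 4.71. The order depends on the gene length used. Per kb of the canonical transcript, CD274 had rank 5 rather than 2 in untreated HT1376 FOXP3 KO, and PDCD1LG2 had rank 3 rather than 2 in HT1376 CT with IFNγ, where CD274 no longer overlapped it. By this length CD47 led in HT1376 CT with IFNγ at 47.5 CPM per kb and overlapped CD274 at 47.1. TNFRSF14, at 15.5, followed PDCD1LG2 there. In HT1376 FOXP3 KO with IFNγ, CD47 at 15.5 no longer overlapped CD274 at 9.62, and CD274 overlapped NECTIN2.

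IFNγ raised PDCD1LG2, TNFRSF14, LGALS9 and CD47 in HT1376 CT. Differences were tested with the quasi-likelihood test of edgeR over all genes with at least 10 counts, and calls were made at a Benjamini-Hochberg adjusted p under 0.05. Of the 9 ligand genes tested, 4 were called higher and none lower, where 3.53% of the 24416 genes tested were called higher and 1.82% lower. At an unadjusted p under 0.05 there were 7, and 17.7% of all genes tested. The groups did not overlap for 6 ligand genes that were higher and 1 that was lower, against 10.3% and 13.7% of all genes tested. Libraries sharing a number varied together, so the value from a model that also holds a term for the number (with edgeR's bias-adjusted deviance, called the blocked fit here) stands beside each result whose call it changed. With the blocked fit, 7 ligand genes were called higher and 1 lower, and 8.52% and 8.27% of all genes were. Without the bias adjustment the block called 8 ligand genes and 18.6% of all genes, and DESeq2 called 9.11% of the genes to which it gave an adjusted p.

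In HT1376 FOXP3 KO, IFNγ raised PDCD1LG2 and TNFRSF14. These were the only calls among the 9 ligand genes tested, where 0.978% of the 24131 genes tested were called higher and 0.00414% lower. At an unadjusted p under 0.05 there were 4, and 5.37% of all genes tested. The groups did not overlap for 4 that were higher, against 6.11% of all genes tested. With the blocked fit 4 ligand genes were called higher, CD274 and CD47 being added, and 3.29% of all genes were called higher and 0.970% lower. The block without the bias adjustment and DESeq2 also called 4, and 5.53% and 1.64% of all genes.

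Comparing the lines, most ligand genes were lower in HT1376 FOXP3 KO and VTCN1 was higher. In untreated cells, 6 of 9 were called lower (CD274, PDCD1LG2, CD276, PVR, TNFRSF14 and CD47) and 1 higher, where 18.2% and 14.0% of the 25320 genes tested were. With IFNγ, 6 of 9 were called lower (CD274, PDCD1LG2, PVR, LGALS9, TNFRSF14 and CD47) and 1 higher, where 15.7% and 13.2% of the 24388 genes tested were. The blocked fit called 7 lower and none higher there, and 19.7% and 16.6% of all genes. Requiring also a log2 difference beyond 2 in either direction left 4 ligand genes, CD274, PDCD1LG2, LGALS9 and VTCN1, and 12.1% of all genes. The median log2 difference of the 9 genes was -0.87 untreated and -1.55 with IFNγ, against -0.02 and 0.02 for all genes tested. In these bulk libraries, fewer cells that express a gene and less RNA per cell cannot be told apart.

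**Figure D2:**
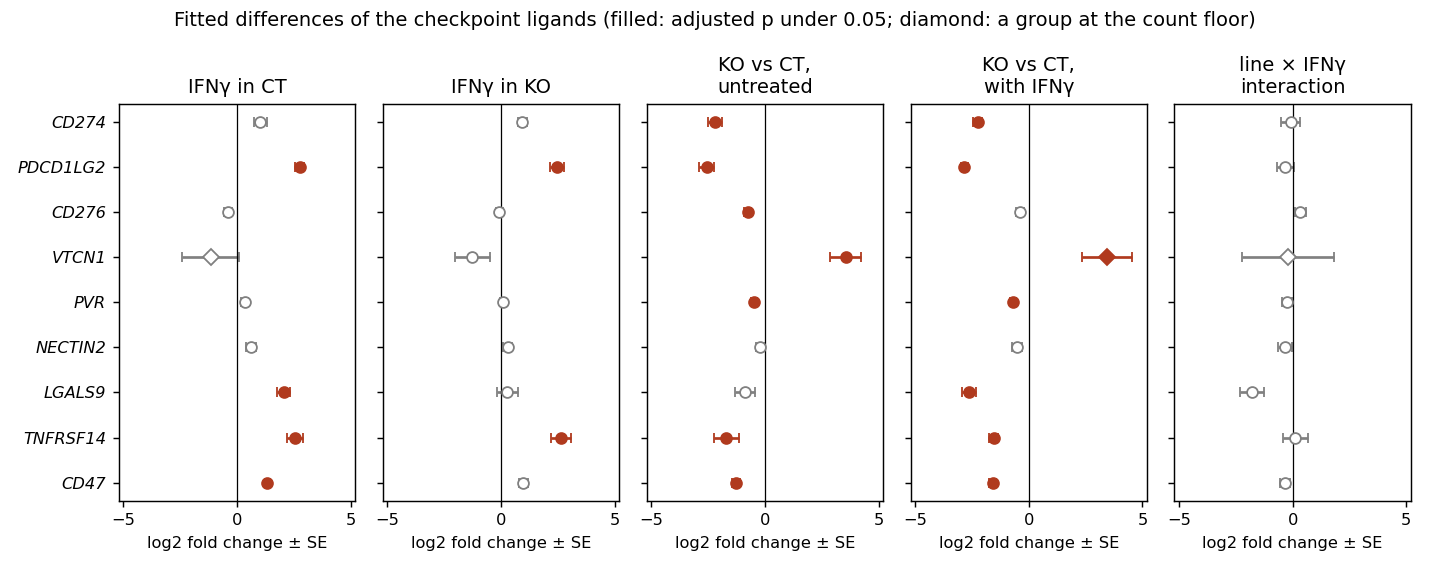
Fitted log2 fold changes with their standard errors (SE) for 9 ligand genes in 5 comparisons from edgeR, filled where the adjusted p was under 0.05. Diamonds mark comparisons in which a group had at most 3 counts in each library, where the fitted fold depends on the prior count. The IFNγ panels hold 4 and 2 called genes, and the panels comparing the lines hold 7 each.

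CD274 encodes PD-L1, the main ligand of PD-1 on tumor cells. It lies at chr9:5450503-5470566 (GRCh38, plus strand). Untreated HT1376 CT had 95.8, 44.6 and 116 CPM in replicates 11, 12 and 13, and HT1376 CT with IFNγ had 148, 147 and 219 CPM. The treated libraries all lay above the untreated ones, with replicate 12 the lowest of the untreated. The log2 fold change was 1.02 (SE 0.28, 2.03-fold), which did not pass the threshold with edgeR (adjusted p = 0.0619). With the blocked fit it did (log2 fold change 1.04, adjusted p = 0.000342), and it also passed with DESeq2 (adjusted p = 0.00474) and without HT1376 CT replicate 13 (log2 fold change 1.31, adjusted p = 0.0409). Leaving out any other library gave no call, with log2 fold changes down to 0.72 and edgeR adjusted p up to 0.240.

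HT1376 FOXP3 KO had 15.4, 15.9 and 24.2 CPM of CD274 untreated and 32.2, 28.2 and 44.6 CPM with IFNγ. Each treated library lay above each untreated one and below each library of HT1376 CT with IFNγ. The log2 fold change with IFNγ was 0.94 (SE 0.21, 1.91-fold; edgeR adjusted p = 0.117), which passed with the blocked fit (0.95, adjusted p = 5.9e-06) and with DESeq2 (adjusted p = 0.00562). Between the lines, CD274 fell by 2.19 on the log2 scale untreated (SE 0.31, edgeR adjusted p = 0.000283) and by 2.25 with IFNγ (SE 0.20, adjusted p = 1.1e-05). The change with IFNγ was 2.03-fold in one line and 1.91-fold in the other. The interaction of line and IFNγ, the test of whether this change differed, was -0.09 (SE 0.41, unadjusted p = 0.834 from edgeR), with a 95% interval of -0.95 to 0.78.

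PDCD1LG2 encodes PD-L2, the second ligand of PD-1, and lies at chr9:5510531-5571282 on the same strand. It had 12.8, 8.90 and 15.9 CPM in untreated HT1376 CT and 90.5, 70.9 and 92.2 CPM with IFNγ. In HT1376 FOXP3 KO it had 2.31, 1.07 and 2.76 CPM untreated, from 12 to 54 counts, and 9.96, 11.1 and 13.3 CPM with IFNγ. The treated and untreated libraries of each line were far apart, and the treated HT1376 FOXP3 KO libraries fell within the range of untreated HT1376 CT.

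IFNγ raised PDCD1LG2 by a log2 fold change of 2.76 in HT1376 CT (SE 0.20, 6.78-fold, edgeR adjusted p = 4.2e-06) and by 2.46 in HT1376 FOXP3 KO (SE 0.30, 5.52-fold, adjusted p = 0.00287). By replicate number the fold was 7.06, 7.96 and 5.79 in HT1376 CT and 4.31, 10.4 and 4.80 in HT1376 FOXP3 KO. PDCD1LG2 was lower in HT1376 FOXP3 KO by 5.90-fold untreated and 7.16-fold with IFNγ (log2 fold changes -2.56 and -2.84, edgeR adjusted p = 0.000159 and 4.3e-07). The interaction was -0.32 (SE 0.36, edgeR adjusted p = 0.949), with a 95% interval of -1.08 to 0.44.

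**Figure D3:**
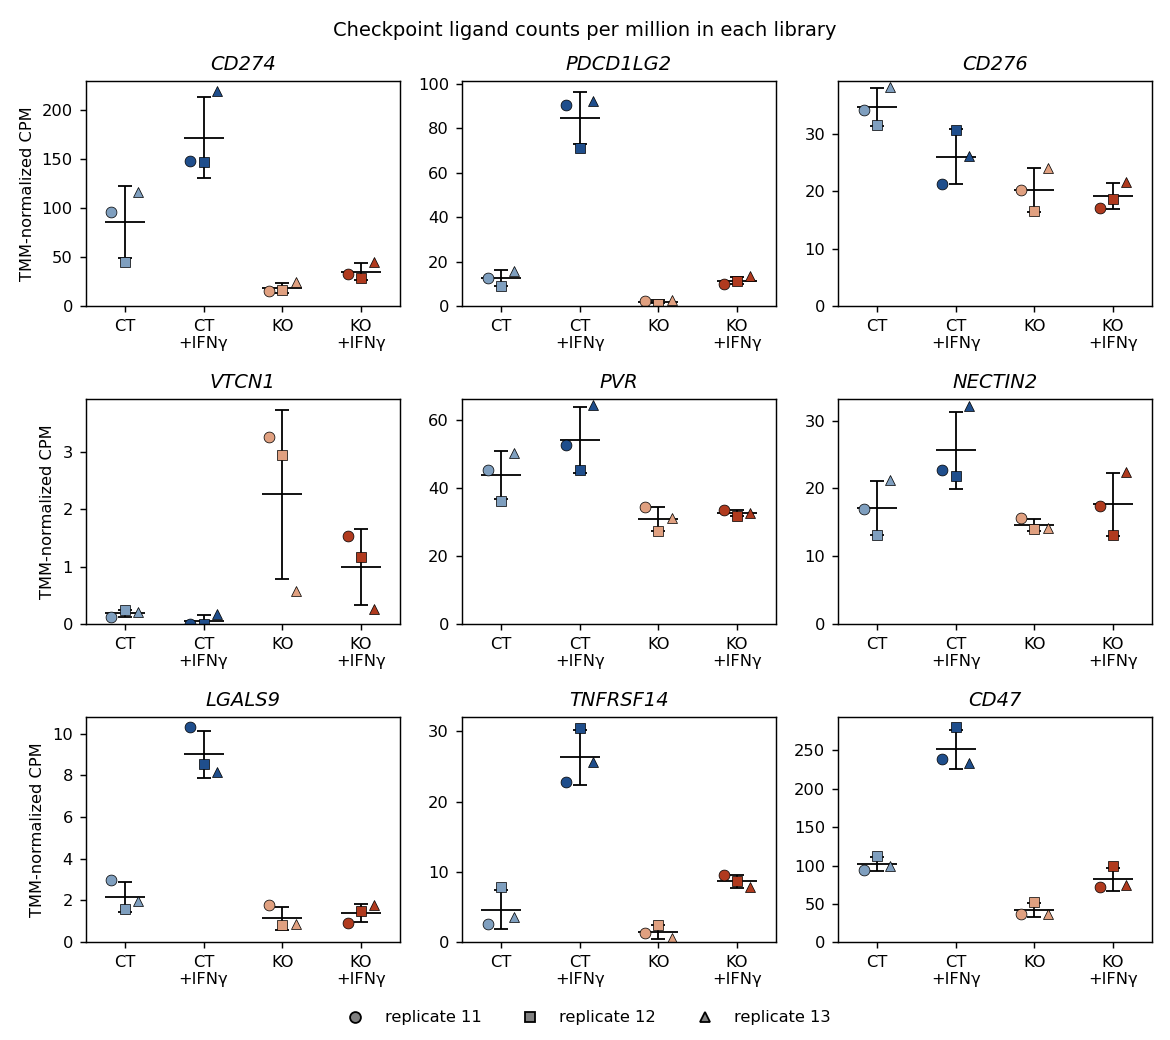
TMM-normalized CPM of 9 ligand genes in the 12 libraries, by group and replicate number. Horizontal bars are means and whiskers 1 SD over 3 libraries, and each vertical axis starts at 0. PDCD1LG2 averaged 84.5 CPM in HT1376 CT with IFNγ and 11.4 CPM in HT1376 FOXP3 KO with IFNγ.

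The balance of the PD-1 ligands was compared within each library, which does not depend on scaling between libraries. Scaled per kb of each gene, untreated HT1376 CT held 0.226, 0.337 and 0.231 times as many PDCD1LG2 as CD274 counts, and HT1376 CT with IFNγ held 1.04, 0.815 and 0.711. HT1376 FOXP3 KO held 0.253, 0.114 and 0.193 untreated and 0.523, 0.665 and 0.503 with IFNγ. The treated libraries lay above the untreated ones in both lines. The ratio was 3.24-fold higher with IFNγ in HT1376 CT and 3.16-fold higher in HT1376 FOXP3 KO, each with a two-sided exact permutation p of 0.1, the smallest that 3 against 3 libraries allow. The untreated lines overlapped (exact permutation p = 0.3), and with IFNγ the ratio was lower in HT1376 FOXP3 KO without overlap (log2 difference -0.59, exact permutation p = 0.1).

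**Figure D4:**
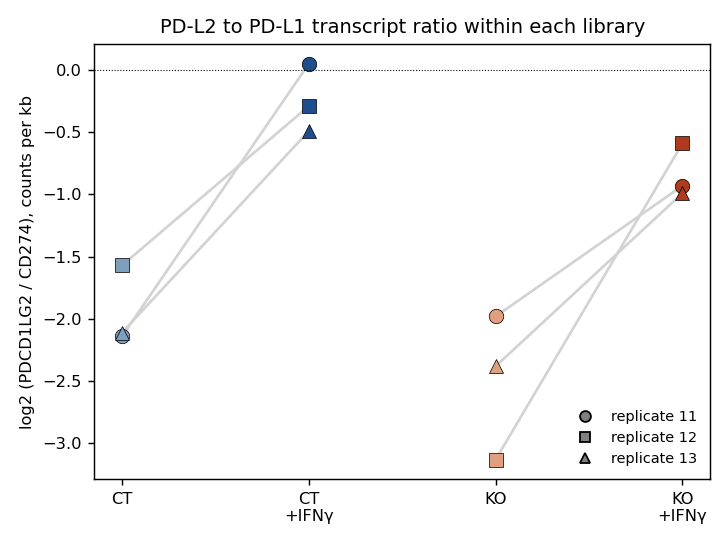
Log2 ratio of PDCD1LG2 to CD274 counts per kb in each library, with lines joining libraries of the same line and replicate number. The means were -1.94 and -0.24 in HT1376 CT without and with IFNγ, and -2.50 and -0.84 in HT1376 FOXP3 KO.

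CD276 encodes B7-H3, a B7 family protein common on carcinoma cells. It had 34.2, 31.6 and 38.1 CPM in untreated HT1376 CT and 21.2, 30.7 and 26.2 CPM with IFNγ. All treated libraries were below the untreated ones, though replicate 12 differed little. The log2 fold change was -0.40 (SE 0.16, edgeR adjusted p = 0.217) and passed only with the blocked fits, at -0.45 (adjusted p = 0.0251) with the bias-adjusted deviance. HT1376 FOXP3 KO had 16.5 to 24.1 CPM untreated and 17.1 to 21.6 CPM with IFNγ, with overlap. CD276 was 1.69-fold lower in HT1376 FOXP3 KO than in HT1376 CT untreated (log2 fold change -0.75, SE 0.16, edgeR adjusted p = 0.00382). With IFNγ the lines overlapped (-0.39, adjusted p = 0.135).

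VTCN1 encodes B7-H4, a B7 family protein that inhibits T cells. It was close to the count floor in HT1376 CT, with 2, 3 and 8 counts untreated and 0, 0 and 3 counts with IFNγ. HT1376 FOXP3 KO had 76, 33 and 10 counts untreated (3.26, 2.94 and 0.576 CPM) and 23, 11 and 8 counts with IFNγ (1.54, 1.17 and 0.261 CPM). In CPM, all HT1376 FOXP3 KO libraries lay above all HT1376 CT libraries, and replicate 13 was the lowest HT1376 FOXP3 KO library in both treatments. The floor of 3 counts was 0.668 CPM in HT1376 CT with IFNγ replicate 12. Both HT1376 FOXP3 KO replicate 13 libraries were below that, so their separation from it is not resolved. VTCN1 was higher in untreated HT1376 FOXP3 KO by a log2 fold change of 3.55 (SE 0.70, 11.7-fold, edgeR adjusted p = 0.00277). With IFNγ it was at least 2.58-fold higher, with HT1376 CT set at 3 counts per library. The edgeR adjusted p of that difference was 0.0394. The call was lost with the blocked fit (adjusted p = 0.0609) and without any 1 of HT1376 CT with IFNγ replicates 11, 12 and 13 or HT1376 FOXP3 KO with IFNγ replicates 11 and 12 (adjusted p = 0.110, 0.0782, 0.0591, 0.151 and 0.0695). Within HT1376 FOXP3 KO the treated level was 0.472, 0.399 and 0.453 times the untreated level by replicate number, which did not pass (log2 fold change -1.25, SE 0.76, edgeR adjusted p = 0.999) and did not with the blocked fit either (log2 fold change -1.13).

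CD80 encodes B7-1, the ligand of CD28 and CTLA-4 on antigen-presenting cells. It had 0 counts in each of the 12 libraries, which allows a level of up to 3 counts, or 0.0764 to 0.668 CPM, for reads the counting could assign. These floors cover counting error only. Of its exon bases, 798 lie opposite exons of TIMMDC1, which was expressed at 51.6 to 59.8 CPM.

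PVR encodes CD155, a ligand of TIGIT, CD226 and CD96 on T cells and NK cells. It had 45.3, 36.1 and 50.1 CPM in untreated HT1376 CT and 52.6, 45.2 and 64.2 CPM with IFNγ. The groups overlapped, and each treated library was above the untreated one of its number. The log2 fold change was 0.33 (SE 0.16, edgeR adjusted p = 0.313), and with the blocked fit 0.33 (adjusted p = 0.0239). HT1376 FOXP3 KO had 27.4 to 34.4 CPM untreated and 31.8 to 33.6 CPM with IFNγ. Against HT1376 CT, PVR was lower there untreated (log2 fold change -0.48, SE 0.15, edgeR adjusted p = 0.0282) and with IFNγ (-0.69, SE 0.15, adjusted p = 0.00546). Leaving out HT1376 CT replicate 11 or 13 (adjusted p = 0.102 and 0.155) or HT1376 FOXP3 KO replicate 12 or 13 (0.0799 and 0.0894) ended the untreated call. PVR shares exon bases on the same strand with ENSG00000279095 (2028 bases, no counts) and with CEACAM19 (121 bases), which was at 8.71 CPM in untreated HT1376 CT and 2.46 CPM in untreated HT1376 FOXP3 KO. The part of these overlaps was not tested.

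NECTIN2 encodes CD112, which binds TIGIT, PVRIG and CD226. It had 17.0, 13.2 and 21.2 CPM in untreated HT1376 CT and 22.7, 21.9 and 32.2 CPM with IFNγ, without overlap. The log2 fold change of 0.61 (SE 0.21, edgeR adjusted p = 0.136) passed with the blocked fit (0.59, adjusted p = 0.00375). In HT1376 FOXP3 KO it had 14.0 to 15.7 CPM untreated and 13.1 to 22.4 CPM with IFNγ. Untreated lines overlapped and differed by -0.22 (95% interval -0.62 to 0.19, edgeR adjusted p = 0.419), the smallest untreated difference between the lines among the 9 genes. With IFNγ the difference was -0.50 (adjusted p = 0.115) and passed with the blocked fit (-0.49, adjusted p = 0.0254).

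LGALS9 encodes galectin-9, a lectin that binds TIM-3. It had 2.99, 1.59 and 1.96 CPM in untreated HT1376 CT and 10.3, 8.54 and 8.16 CPM with IFNγ. IFNγ raised it in that line by a log2 fold change of 2.06 (SE 0.29, 4.18-fold, edgeR adjusted p = 0.00120). HT1376 FOXP3 KO had 1.76, 0.803 and 0.864 CPM untreated and 0.936, 1.49 and 1.76 CPM with IFNγ. These groups overlapped, and the change by replicate number was 0.533-, 1.86- and 2.04-fold (log2 fold change 0.28, 95% interval -0.73 to 1.28, edgeR adjusted p = 0.999). Between the treated lines LGALS9 was lower in HT1376 FOXP3 KO by a log2 fold change of -2.62 (SE 0.32, edgeR adjusted p = 0.000106), and the untreated lines overlapped (-0.87, adjusted p = 0.147).

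The IFNγ change of LGALS9 differed most between the lines among the ligand genes, with an interaction of -1.79 (SE 0.53, edgeR adjusted p = 0.462). With a replicate block within each line, a setting chosen after the values were seen, it was -1.78 (adjusted p = 0.0340 with the bias-adjusted deviance). LGALS9 has the near-identical copies LGALS9B and LGALS9C, between which reads can be split, and LGALS9B averaged 0.307 CPM in untreated HT1376 CT and 3.02 CPM in untreated HT1376 FOXP3 KO. These genes were looked at after the values were seen. The 3 genes together had 2.95 ± 1.03 and 10.4 ± 1.52 CPM in HT1376 CT without and with IFNγ, and 5.28 ± 0.895 and 6.22 ± 2.17 CPM in HT1376 FOXP3 KO (SD, n = 3). For this sum the rise with IFNγ in HT1376 CT held (log2 fold change 1.82, edgeR adjusted p = 0.00281), and the difference between the treated lines did not pass (-0.70, adjusted p = 0.0954). The untreated difference turned to 0.84 (adjusted p = 0.0577), and the interaction was -1.58 (adjusted p = 0.366). The call of lower LGALS9 in HT1376 FOXP3 KO with IFNγ thus held for the counts assigned to LGALS9 and not for the sum.

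TNFRSF14 encodes HVEM, which binds BTLA, CD160 and LIGHT. It had 2.52, 7.78 and 3.65 CPM in untreated HT1376 CT and 22.8, 30.5 and 25.6 CPM with IFNγ. In HT1376 FOXP3 KO it had 1.29, 2.50 and 0.576 CPM untreated and 9.56, 8.64 and 7.79 CPM with IFNγ. Treated and untreated libraries were far apart in both lines. IFNγ raised it by a log2 fold change of 2.56 in HT1376 CT (SE 0.34, 5.89-fold, edgeR adjusted p = 0.000705) and of 2.64 in HT1376 FOXP3 KO (SE 0.44, 6.25-fold, adjusted p = 0.0214). The call in HT1376 FOXP3 KO was lost without its untreated replicate 11 (adjusted p = 0.154) or its treated replicate 11 or 13 (0.128 and 0.0763), and passed with the blocked fit (adjusted p = 2.2e-06).

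TNFRSF14 was lower in HT1376 FOXP3 KO with IFNγ than in HT1376 CT with IFNγ (log2 fold change -1.55, SE 0.19, edgeR adjusted p = 0.000125). Untreated it was also lower (-1.69, SE 0.54, adjusted p = 0.0345), though the highest HT1376 FOXP3 KO library, at 2.50 CPM, was next to the lowest HT1376 CT library, at 2.52 CPM. Leaving out HT1376 CT replicate 12 (-1.10, adjusted p = 0.151) or 13 (-1.82, 0.0684) or HT1376 FOXP3 KO replicate 11 (-1.58, 0.124) or 13 (-1.25, 0.113) ended that call, as did edgeR's filterByExpr (adjusted p = 0.0508). The antisense gene TNFRSF14-AS1 shares 826 exon bases with TNFRSF14 and had 0 to 22 counts per library, and the strand setting of the counting was not stated.

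CD47 encodes the signal that SIRPA on macrophages reads to spare a cell from engulfment. It had 93.8, 112 and 100 CPM in untreated HT1376 CT and 239, 281 and 234 CPM with IFNγ. IFNγ raised it by a log2 fold change of 1.33 (SE 0.12, 2.51-fold, edgeR adjusted p = 3.2e-05). HT1376 FOXP3 KO had 36.5, 52.0 and 36.8 CPM untreated and 71.7, 99.7 and 74.1 CPM with IFNγ. Replicate 12 was the highest in all 4 groups, and the fold by number in HT1376 FOXP3 KO was 1.97, 1.92 and 2.01.

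In HT1376 FOXP3 KO the change of CD47 with IFNγ was 0.99 on the log2 scale (SE 0.20, 1.98-fold). It did not pass with edgeR (adjusted p = 0.0614) and did with the blocked fit (adjusted p = 5.1e-08), with DESeq2 (adjusted p = 0.000761) and without HT1376 FOXP3 KO replicate 12 (1.20, adjusted p = 0.0116). Leaving out any other library gave no call, with log2 fold changes down to 0.80 and edgeR adjusted p up to 0.345. Between the lines CD47 was lower in HT1376 FOXP3 KO untreated (log2 fold change -1.27, SE 0.16, edgeR adjusted p = 0.000107) and with IFNγ (-1.58, SE 0.16, adjusted p = 2.6e-05).

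None of the 9 ligand genes had a called interaction of line and IFNγ in edgeR, where 0.111% of the 27806 genes tested did, and 1, LGALS9, had an unadjusted p under 0.05, as did 6.21% of all genes. DESeq2 also called none. With the replicate block within each line and no bias adjustment, LGALS9 (adjusted p = 0.00614) and CD47 (-0.33, adjusted p = 0.0444) were called, with 4.75% of all genes, and LGALS9 alone with the adjustment, with 3.12%.

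HT1376 FOXP3 KO with IFNγ was set against untreated HT1376 CT, which places the level reached in the treated knockout line. These comparisons share groups with those above. CD276 was lower (log2 fold change -0.83, edgeR adjusted p = 0.00136), as was CD274 (-1.27, adjusted p = 0.00814), although HT1376 FOXP3 KO replicate 13 with IFNγ, at 44.6 CPM, was level with HT1376 CT replicate 12. PDCD1LG2 differed by -0.11 (95% interval -0.62 to 0.39, adjusted p = 0.748), and NECTIN2 by 0.07 (-0.43 to 0.56, adjusted p = 0.855). VTCN1 was higher (2.33, adjusted p = 0.0442), which was lost with the blocked fit (adjusted p = 0.0536) and without HT1376 CT replicate 11, 12 or 13 or HT1376 FOXP3 KO with IFNγ replicate 11 or 12 (adjusted p = 0.115, 0.0786, 0.113, 0.190 and 0.0789). In all, 2 ligand genes were called lower and 1 higher, where 17.8% and 14.8% of the 25493 genes tested were. The blocked fit added TNFRSF14 (1.05, adjusted p = 0.0208) and PVR (-0.40, adjusted p = 0.0402), and without the bias adjustment the block called 5 ligand genes and 36.7% of all genes. LGALS9 differed by -0.60 (adjusted p = 0.273), and the sum with its copies by 1.08 (edgeR adjusted p = 0.0374).

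Genes of the IFNγ pathway were read beside the ligands. Of 18 such genes, 12 were called higher with IFNγ in HT1376 CT and 7 in HT1376 FOXP3 KO, and none lower, with 14 and 10 higher in the blocked fit. Of all genes tested, 3.53% were called higher in HT1376 CT and 0.978% in HT1376 FOXP3 KO, and 8.52% and 3.29% in the blocked fit. IRF1 rose from 62.8 ± 5.42 to 878 ± 27.9 CPM in HT1376 CT and from 51.0 ± 5.11 to 378 ± 9.94 CPM in HT1376 FOXP3 KO (SD, n = 3). Its rise was smaller in HT1376 FOXP3 KO, with an interaction of -0.93 (SE 0.15, edgeR adjusted p = 0.0171), the 1 called interaction in the list (2 with the blocked fit). SOCS1, an inhibitor of JAK signaling, was higher with IFNγ in both lines (log2 fold changes 2.02 and 2.22, edgeR adjusted p = 0.000590 and 0.00284). Between the untreated lines, 8 of 17 pathway genes tested were lower in HT1376 FOXP3 KO and 3 higher, against 18.2% and 14.0% of all genes tested. The lower ones included IFNGR2 (-1.22, edgeR adjusted p = 9.9e-05) and JAK2 (-1.06, adjusted p = 0.000261).

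Genes that stabilize or degrade the PD-L1 protein were read as well. Of 14 tested, none was called higher and 2 lower with IFNγ in HT1376 CT, and none was called in HT1376 FOXP3 KO (with the blocked fit 1 higher and 4 lower, and 1 lower). With IFNγ, 3.53% of all genes tested were called higher and 1.82% lower in HT1376 CT, and 0.978% and 0.00414% in HT1376 FOXP3 KO. The blocked fit called 8.52% and 8.27% in HT1376 CT, and 3.29% and 0.970% in HT1376 FOXP3 KO. Between the untreated lines 8 were called, 3 with more and 5 with less RNA in HT1376 FOXP3 KO (3 and 6 with the blocked fit). Of all genes tested there, 14.0% were called higher and 18.2% lower. CMTM6, which keeps PD-L1 at the cell surface, had 57.5 to 72.0 CPM on average in the 4 groups and was higher in untreated HT1376 FOXP3 KO (log2 fold change 0.34, edgeR adjusted p = 0.0428). ZDHHC9, a palmitoyltransferase, was lower in HT1376 FOXP3 KO both untreated (-1.35, edgeR adjusted p = 1.4e-05) and with IFNγ (-1.04, adjusted p = 0.000226).

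Of 26 other ligand genes, 24 were tested for IFNγ in HT1376 CT, with 4 higher and 3 lower, and 22 in HT1376 FOXP3 KO, with 2 higher and none lower (with the blocked fit 8 and 5, and 7 and 2). The shares of all genes were 3.53% and 1.82% in HT1376 CT and 0.978% and 0.00414% in HT1376 FOXP3 KO. With the blocked fit they were 8.52% and 8.27%, and 3.29% and 0.970%. HLA-E, the ligand of NKG2A, went from 311 to 2218 CPM in HT1376 CT and from 214 to 1159 CPM in HT1376 FOXP3 KO. CD24, a ligand of Siglec-10, was lower with IFNγ in HT1376 CT (73.7 to 16.5 CPM, edgeR adjusted p = 8.2e-05). Between the untreated lines 12 of 23 were lower in HT1376 FOXP3 KO and 2 higher (14 and 2 with the blocked fit), against 18.2% and 14.0% of all genes tested. CEACAM1, a ligand of TIM-3, was at 312 CPM in HT1376 CT and 2.10 CPM in HT1376 FOXP3 KO (edgeR adjusted p = 1.1e-06), and CD200 at 2.05 and 34.0 CPM (adjusted p = 1.4e-05). Of 15 receptor genes, 8 passed the count filter in HT1376 CT and 7 in HT1376 FOXP3 KO, and none was called with IFNγ (with the blocked fit 1 lower in HT1376 CT). CTLA4 was at 0 in all libraries, PDCD1 in all groups but untreated HT1376 CT, and TIGIT in all groups but HT1376 FOXP3 KO with IFNγ. SIRPA, the receptor of CD47, was at 17.0 CPM in untreated HT1376 CT and 0.421 CPM in untreated HT1376 FOXP3 KO (edgeR adjusted p = 8.1e-06).

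CD274 and PDCD1LG2 are neighbors on chromosome 9, 39964 bases apart. Protein-coding genes within 500 kb of the pair were read to see whether the changes extended along the chromosome. PLGRKT, whose start lies closest to that of CD274, had 19.2 and 14.1 CPM in HT1376 CT without and with IFNγ and 10.8 and 8.36 CPM in HT1376 FOXP3 KO, and neither IFNγ difference passed (log2 fold changes -0.39 and -0.34, edgeR adjusted p = 0.330 and 0.999). RIC1, the next of these genes after PDCD1LG2, had 40.7 to 49.0 CPM in the 4 groups with no called difference in 5 comparisons. JAK2 went from 22.2 to 56.2 CPM with IFNγ in HT1376 CT (1.36, edgeR adjusted p = 9.1e-05) and from 10.5 to 16.7 CPM in HT1376 FOXP3 KO (0.68, adjusted p = 0.0977; blocked fit adjusted p = 0.00195).

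**Figure D5:**
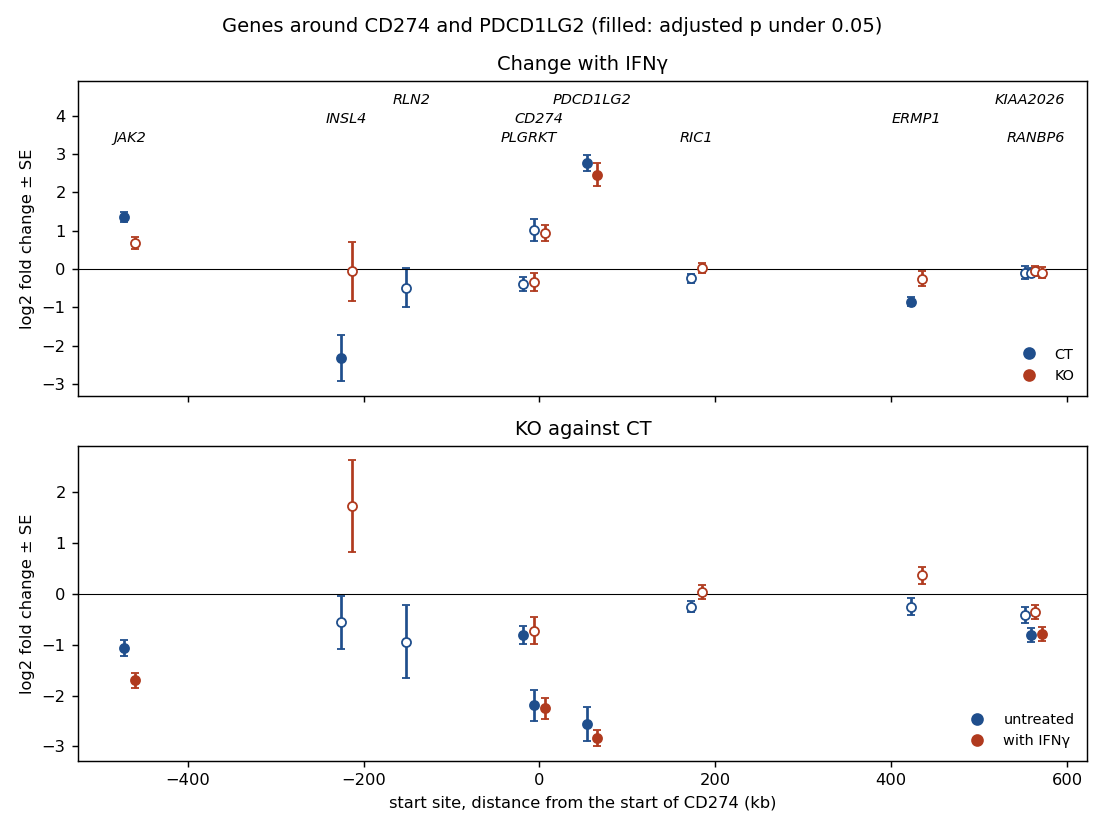
Log2 fold changes (± SE, edgeR) of genes around CD274 and PDCD1LG2 against the distance of their start from that of CD274 in kb, with IFNγ in the upper panel and between the lines in the lower, filled where the adjusted p was under 0.05. The colors are offset sideways, and genes below 1 CPM in both groups are not drawn. With IFNγ the called genes were PDCD1LG2 in both lines and, in HT1376 CT, JAK2 above 0 and INSL4 (-2.32) and ERMP1 (-0.85) below.

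Between the lines some neighbors were lower too. PLGRKT differed by -0.81 untreated (edgeR adjusted p = 0.00587) and -0.72 with IFNγ (adjusted p = 0.0573, and 0.0102 with the blocked fit), RANBP6 by -0.81 and -0.78 (adjusted p = 0.00141 and 0.00140), and JAK2 by -1.06 and -1.70 (adjusted p = 0.000261 and 1.0e-05). RIC1 had no call between the lines in either treatment. ERMP1 was called with IFNγ only in the blocked fit (0.37, adjusted p = 0.0356), and KIAA2026 only in the blocked fit, untreated (-0.39, adjusted p = 0.0489) and with IFNγ (-0.37, adjusted p = 0.0305). INSL4 was also called with IFNγ only in the blocked fit and was higher in HT1376 FOXP3 KO (1.78, adjusted p = 0.0467). It had 0.264 CPM in HT1376 CT and 1.04 CPM in HT1376 FOXP3 KO with IFNγ, and the groups overlapped. CD274 and PDCD1LG2 had the largest differences of the expressed genes in this window, -2.19 and -2.56 untreated.

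Genes with the most similar pattern were ranked by the root mean square difference of centered log2(CPM + 1) profiles over the 12 libraries, among 15473 genes. Nearest to CD274 were XDH (0.336), ENC1 (0.343), TNFRSF1B (0.358), CTH (0.368) and PDP1 (0.378). XDH, for example, had 168 and 309 CPM in HT1376 CT and 40.8 and 85.9 CPM in HT1376 FOXP3 KO. Nearest to PDCD1LG2 were APOBEC3F (0.510), LAMP3 (0.516), HELZ2 (0.565), ISG20 (0.573) and MLKL (0.575). CD274 ranked 31 in the order for PDCD1LG2, TNFRSF14 70, CD47 96 and LGALS9 148. PDCD1LG2 ranked 775 in the order for CD274, and CD47, at 227, was the ligand gene nearest to it. The 12 libraries share 4 group means, so this measure mostly describes the order of the groups.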

How the data were processed

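Per the study's methods, reads were mapped by STAR (2.7.11a in the submitters' processing notes) on GRCh38 (Ensembl 103), Mycoplasma sequences were taken out by Kraken, and the authors deposited the raw counts per gene from htseq-count. The strand setting and the handling of reads matching several genes were not given in the sources used here. Coordinates and exon lengths were taken from GENCODE 44. Groups were compared by edgeR's quasi-likelihood test (version 4.0.16, R 4.3.3) after TMM normalization. Genes entered a test with 10 or more counts summed over its libraries, and p-values were adjusted over all of them by Benjamini-Hochberg. The script was tested on simulated counts. Levels are CPM on TMM-adjusted library sizes over the 12 libraries. Levels at or below 3 counts were treated as a floor.

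The ligand genes, lists and replicate block were chosen with earlier results of these data known. Beside the 10 ligand genes, up to 3 called genes per list with the smallest p, IRF1, JAK2, SOCS1 and CMTM6, neighbors within 500 kb and the 5 genes of most similar pattern were named. Marker genes, CTLA4, TIGIT, PDCD1 and genes overlapping a ligand gene were named from their annotation, LGALS9B and LGALS9C after values were seen. A gene that this rule also names is not reported here.

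The deviations of same-numbered libraries from their group means were correlated (r = 0.435 to 0.488 in HT1376 CT, 0.539 to 0.692 in HT1376 FOXP3 KO and 0.17 to 0.422 between the lines, over 15677 genes with a mean of at least 1 CPM, and at least 0.115 over 27806 genes), so the replicate block is given where it changed a call. No source says what the numbers mark. Alternatives were other size factors and filters, DESeq2 1.42.0, the replicate block, the bias-adjusted deviance, 1 fit of all 12 libraries, and leaving out each library.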

Additional observations from a re-analysis of the deposited data

How the results depend on the processing

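The count of ligand genes called with IFNγ in HT1376 CT went from 4 to 8 with the replicate block, with or without the bias-adjusted deviance, and in HT1376 FOXP3 KO from 2 to 4 with the replicate block, with DESeq2 and without the count filter, and to between 1 and 3 when a library was left out. It went from 3 to 5 with the replicate block for HT1376 FOXP3 KO with IFNγ against untreated HT1376 CT, and for the interaction from 0 to 2 with a block within each line (1 with the bias-adjusted deviance). Between the lines with IFNγ, 4 of 7 also had an absolute fitted log2 fold change over 2, VTCN1 among them with HT1376 CT at the count floor. Over all genes, the interaction went from 31 calls to 294 without the filter, 160 with DESeq2, 336 with the block (230 with the bias-adjusted deviance) and 15 to 33 when a library was left out. IFNγ in HT1376 CT went from 862 higher and 445 lower to 2248 calls without the filter, 4530 with the block (4099) and 761 to 1201 without a library, and IFNγ in HT1376 FOXP3 KO from 236 higher and 1 lower to 1334 with the block (1027). The block changed no other call of a ligand gene than those given above and that of CD47 in HT1376 FOXP3 KO with IFNγ against untreated HT1376 CT (-0.30, adjusted p = 0.0391 without the bias-adjusted deviance). Per kb of the canonical transcript, PDCD1LG2 ranked 6, 3, 8 and 7 in the 4 groups, CD274 ranked 2 in HT1376 CT with IFNγ and 5 in HT1376 FOXP3 KO, and with DESeq2 size factors PDCD1LG2 ranked 3 in HT1376 FOXP3 KO with IFNγ. The cause of these shifts was not tested.

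Signs turned only for differences that had not passed. Summing LGALS9 with its copies gave 0.84 for untreated and 1.08 for treated HT1376 FOXP3 KO against untreated HT1376 CT. Leaving out 1 library gave -0.17 to 0.06 for CD276 with IFNγ in HT1376 FOXP3 KO, and, between HT1376 FOXP3 KO with IFNγ and untreated HT1376 CT, -0.11 to 0.27 for NECTIN2 and -0.31 to 0.12 for PDCD1LG2. It gave interactions of -0.33 to 0.28 for CD274, -0.36 to 0.71 for TNFRSF14 and -0.73 to 3.52 for VTCN1. DESeq2 gave no adjusted p for VTCN1 with IFNγ in HT1376 CT and for its interaction. Depth limits CD80, with no counts, and VTCN1, with 0 to 8 counts in each HT1376 CT library.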
